A study of Mus musculus with 2 samples.

Results

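The Rag window is the stretch of mm9 chromosome 2 from 101380000 to 101620000, which holds Rag1 and Rag2 with their flanks. Its members are the DNaseI sites that overlap this stretch by at least 1 base. There were 11 of them, of 4024 sites on chromosome 2 and 53593 in the whole list. The window was drawn around the positions of the genes and no measured value enters its rule, but the locus was picked with earlier results of these data known. Rag2 was placed at about 101464000 to 101475000 and Rag1 at about 101478400 to 101489700, so that distances from the genes below are approximate. The sites came from lymphoma T6, an untreated tumour of the Eμ-myc model with the genotype Arf-/- Trp53+/+, on the C57/Bl6 strain. Mice of this model carry a Myc transgene under the immunoglobulin heavy chain enhancer and develop tumours of the B lineage. The labels call the cells B cells from lymph nodes. The nodes were pressed through strainers with no purification of the B cells, so sites from tumour cells and from other lymph node cells cannot be told apart. The series has 2 libraries, this DNaseI library and its input, and the input was not analysed here.

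DNaseI cuts DNA where nucleosomes are absent or displaced, and a DNaseI site is a stretch with many cuts. Rag1 and Rag2 encode the subunits of the recombinase that cuts DNA at V, D and J segments, so that B and T cell precursors can assemble their antigen receptor genes. RAG1 carries the catalytic centre and RAG2 is its essential partner. Both genes are switched on in precursor B and T cells and shut off in mature lymphocytes. They lie next to each other and are transcribed towards each other, so that their 5′ ends are the outer ends of the pair. In mouse B cell progenitors their transcription depends on regulatory DNA upstream of Rag2, among it the enhancer Erag. The mm9 position of Erag was not used here, so no site below is assigned to it. Rag transcripts were not measured in these data, and a list of sites alone does not give the stage of the cells.

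The 5′ ends of the genes are shown as sequence because the Rag2 end had a DNaseI site within 2 kb and the Rag1 end did not. Both stretches are RefSeq promoters of build GRCm38.p6, with 250 bases before the transcription start and 50 after it, and were matched by gene symbol. The Rag2 stretch is chr2:101624462-101624761 on the + strand and the Rag1 stretch is chr2:101649483-101649782 on the - strand. These are GRCm38.p6 positions, which were not converted to mm9 and so were not set against the sites. The Rag2 and Rag1 starts lie closer together in them than the approximate mm9 5′ ends do. The approximate ends may therefore lie off the true starts. Capitals mark matches to CANNTG, the E-box that helix-loop-helix factors such as E2A bind, and to CCAAT, on either strand.
Rag2: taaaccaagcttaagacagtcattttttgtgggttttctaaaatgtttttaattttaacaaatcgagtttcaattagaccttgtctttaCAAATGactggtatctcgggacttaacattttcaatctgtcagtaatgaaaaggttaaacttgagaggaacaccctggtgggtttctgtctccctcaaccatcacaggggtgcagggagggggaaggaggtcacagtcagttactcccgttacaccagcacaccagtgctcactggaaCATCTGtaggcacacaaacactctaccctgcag
Rag1: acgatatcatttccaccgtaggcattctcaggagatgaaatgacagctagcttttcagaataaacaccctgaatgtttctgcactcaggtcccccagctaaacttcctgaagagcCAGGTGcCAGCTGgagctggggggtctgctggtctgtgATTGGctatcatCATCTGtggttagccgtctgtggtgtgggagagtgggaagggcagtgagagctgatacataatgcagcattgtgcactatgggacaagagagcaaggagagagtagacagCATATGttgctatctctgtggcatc

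The Rag1 stretch held 4 E-boxes and 1 CCAAT box, and the Rag2 stretch 2 E-boxes and no CCAAT box. Of the 32851 promoters in the same table, 72.3% held at least 1 E-box and 37.4% at least 1 CCAAT box. These shares, and those below, count promoters with any match, and the number of matches per promoter was not compared. The E-boxes of Rag1 began 135, 128 and 85 bases before the start and 25 bases after it. The CCAAT box of Rag1 began 97 bases before the start, between the second and the third of these E-boxes, and lay on the opposite strand. The E-boxes of Rag2 began 161 bases before the start and 17 bases after it. Of the other motifs searched on both strands, TTCCNG, the core of ETS factor sites, matched 1 time in each gene and in 61.7% of promoters. AACNG, the core of Myb sites, matched 2 times in Rag2 and not in Rag1, and occurred in 80.3% of promoters. Neither stretch held TGTTTAC (forkhead, in 3.65% of promoters), TATAAA (the TATA box, in 13.6%) or CACGTG (the E-box that Myc binds, in 7.15%). No match overlapped another. G and C made up 43.0% of the Rag2 stretch and 50% of the Rag1 stretch, against a median of 52.7% over all promoters. A match is a run of letters and does not show that a factor binds.

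At Rag2, a DNaseI site lay just inside the approximate 5′ end of the gene. It spanned 503 bp from 101464890 to 101465392 and began 0.89 kb downstream of that end. Since that end is approximate, the site may lie at the transcription start itself. This site was small. It was narrower than the typical site of the whole list, of which 38.3% was narrower still. It was the only site within 5 kb of the Rag2 5′ end on either side, and the only one in the 11 kb that the gene spans. Its presence is to be read against how often any stretch held a site: 8.49% of 44616 windows of 4 kb on chromosome 2 did. The site still counted with the limit at 1 kb, and 5.46% of windows of 2 kb held one. In the RefSeq gene table of GRCm38.p6, 1 of the 2 transcription starts of Iftap, a gene also called NWC, lies within Rag2 on the opposite strand. Accessibility for Rag2 and for Iftap therefore cannot be told apart inside Rag2. From that start Iftap is transcribed into the flank upstream of Rag2, so the sites of that flank may belong to either gene.

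At Rag1, no DNaseI site lay within 2 kb of the approximate 5′ end. The nearest site lay outside the gene, 2.89 kb upstream of that end. It spanned 853 bp from 101492594 to 101493446, and 64.5% of the list was narrower. With the limit at 5 kb this site counts for Rag1, and 15.4% of windows of 10 kb on chromosome 2 held a site. Inside the gene there was 1 site, of 983 bp from 101483586 to 101484568, which began 5.13 kb downstream of the 5′ end. It was the second widest of the window, and 71.6% of the list was narrower. Of windows as long as the Rag1 extent, 16.7% held a site, and of windows as long as the Rag2 extent 16.4%. Random windows include long stretches without genes, and windows at the starts of other genes were not compared here.

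The flank upstream of Rag2 held 4 sites, 3 of them close together. The first spanned 276 bp from 101437609 to 101437884, 26.1 kb upstream of the Rag2 5′ end. The next was the widest of the 4, with 694 bp from 101438534 to 101439227, 24.8 kb upstream. The one after it was the narrowest site of the window, with 251 bp from 101440957 to 101441207, 22.8 kb upstream. These 3 sites were 0.649 and 1.73 kb apart and together spanned 3.6 kb. The smallest width in the whole list was 249 bp, and 2.69% of the list was narrower than this site. The last site of this flank lay alone, with 304 bp from 101456285 to 101456588, 7.41 kb upstream of Rag2 and 8.30 kb before the site at the gene's 5′ end. Between the genes, in the 3.4 kb that separate the 2 approximate extents, there was no site.

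The flank upstream of Rag1 held 5 sites, counting the one near the 5′ end. The second spanned 623 bp from 101505336 to 101505958, 15.6 kb upstream of Rag1. The third was the widest site of the window, with 1070 bp from 101518147 to 101519216, 28.4 kb upstream. A narrow one of 263 bp, from 101519435 to 101519697, followed it after 0.218 kb, the shortest gap of the window. The last lay apart from all others, with 743 bp from 101572715 to 101573457, 83.0 kb upstream of Rag1 and 53.0 kb beyond its neighbour. In the GRCm38.p6 gene table, the next protein-coding genes beyond Rag1 are Traf6, which relays signals from Toll-like and TNF family receptors, then Prr5l, Commd9, Ldlrad3 and Trim44. The sites were not assigned to these genes, since their mm9 positions were not used here. Any site of this flank, the widest included, may therefore belong to one of these genes and not to Rag1.

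**Figure D1:**
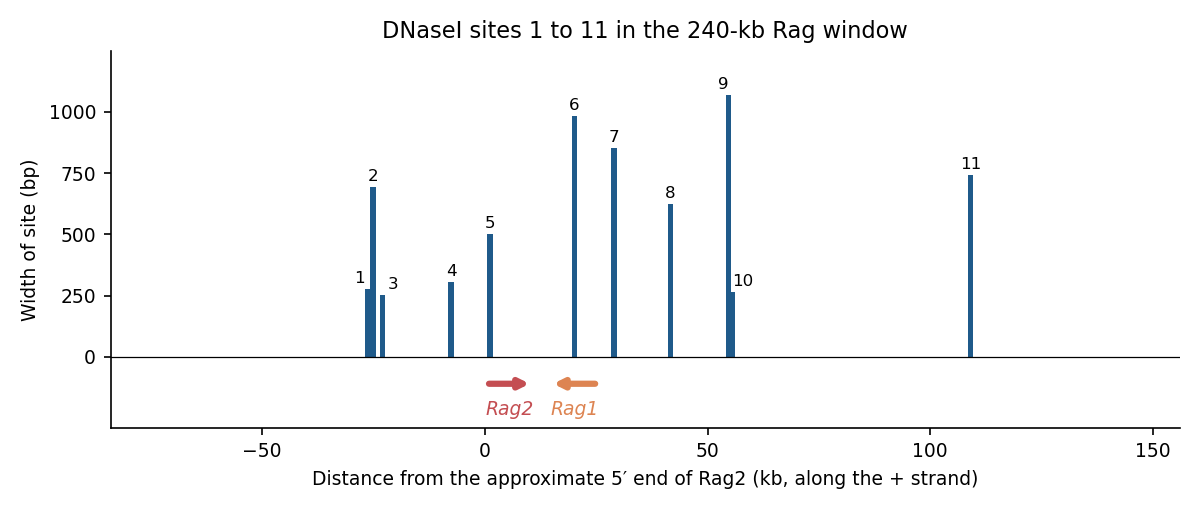
Width in bp of each of the 11 DNaseI sites (numbered in order) against its distance in kb from the approximate 5′ end of Rag2, with arrows for the extents of Rag2 and Rag1 in the direction of transcription. Bars have one fixed thickness, and their height gives the width: the widest, of 1070 bp, lies upstream of Rag1, and the stretch before the first site and that after the last are empty.

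Sites on the Rag1 side of the pair were wider than those on the Rag2 side, with overlap. The 6 sites of the Rag1 side, with the one inside the gene, ran from 263 to 1070 bp with a median of 798 bp. The 5 sites of the Rag2 side, with the one at the gene's 5′ end, ran from 251 to 694 bp with a median of 304 bp. Narrow sites of under 400 bp were 1 of 6 on the Rag1 side and 3 of 5 on the Rag2 side. The Rag1 side covered 4535 bp and the Rag2 side 2028 bp. A side names the place of a site and not the gene it serves, since sites were not assigned to genes. With so few sites from 1 library the difference in width was not tested.

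The window as a whole held more sites than most stretches of its length on chromosome 2. Of its sites, 1 overlapped the approximate Rag2 extent and 1 the approximate Rag1 extent. No site was assigned to a gene, so the count describes the window and not the Rag genes alone. The count was 11 (exact Poisson 95% interval 5.49 to 19.7), against a median of 1 in 742 other windows of 240 kb, with quartiles of 0 and 9 sites. Fewer sites were found in 79.5% of these windows, and 20.5% held at least 11. The densest held 40. No site at all was found in 41.8% of them, so the median is set by empty stretches. Among the 432 windows with at least 1 site, the median was 7 and 64.8% held fewer than the Rag window. Per Mb the window had 45.8 sites, against 22.5 on chromosome 2. By covered bases the window stood nearer the middle: its sites covered 6563 bp (2.73% of its length), and 74.1% of the other windows had less. The list gives no read counts, so the depth is unknown, and the interval covers counting error only. There was 1 library, so no replicate error can be given.

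**Figure D2:**
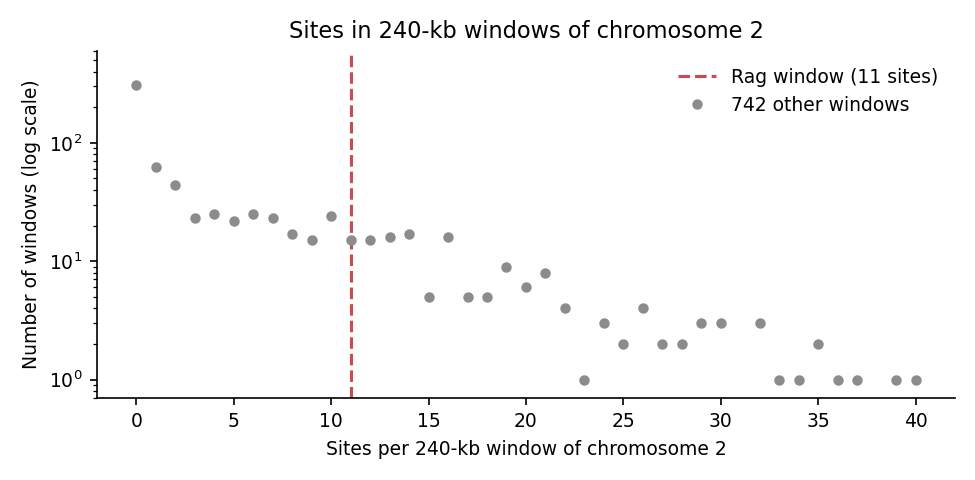
Number of 240-kb windows of chromosome 2 (log scale) against the number of sites in the window. Dots are the 742 other windows and the dashed line marks the 11 sites of the Rag window, above the median of 1 and well below the densest window with 40.

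Beside windows with a like number of sites, the Rag window ranked low for its widest site and not for its typical site. This comparison was chosen after seeing the Rag sites, so its ranks are descriptions only. The widest of the 11, upstream of Rag1 and not assigned to a gene, had 1070 bp, and none was wider than 1500 bp. Among 85 other windows of chromosome 2 with 9 to 13 sites, the widest site had a median of 1750 bp, with quartiles of 1509 and 2023 bp. In 3 of the 85 (3.53%) the widest site was narrower than that of the Rag window. These 85 windows had a median of 8504 covered bp, and 12 of them (14.1%) had less than the 6563 bp of the Rag window. Wide sites of over 1500 bp were absent from 20 of the 85 (23.5%). The median of the 11 Rag sites was 623 bp, 43.5% of the 85 windows had a lower median, and the 4013 other sites of chromosome 2 had a median of 674 bp. Narrow sites were 4 of the 11 (36.4%, exact binomial 95% interval 10.9 to 69.2%), against 29.7% of the other sites of chromosome 2 (28.3 to 31.2%), a difference within counting error. The share of wide sites, 0 of 11, allows up to 28.5% by the same interval, and wide sites were 10.8% elsewhere on chromosome 2.

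**Figure D3:**
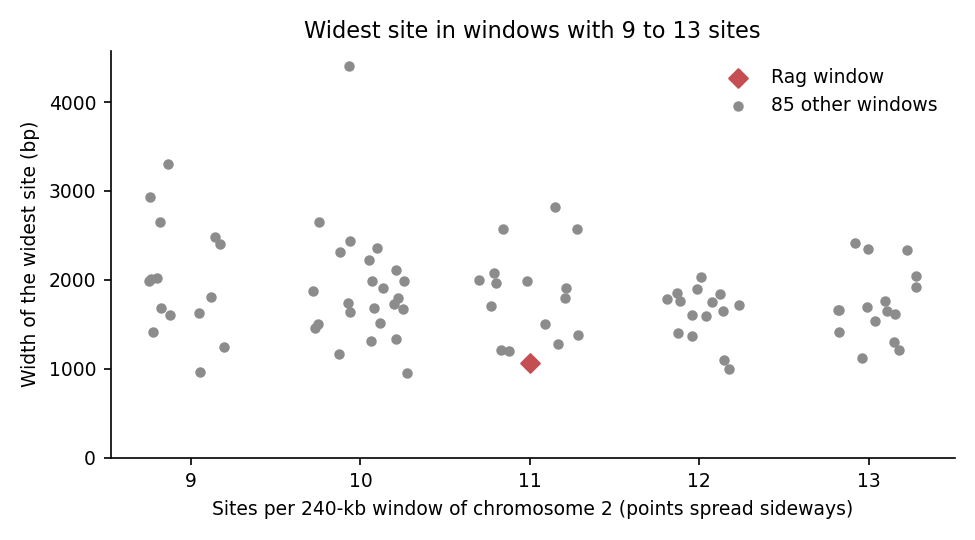
Width in bp of the widest site against the number of sites, for 240-kb windows of chromosome 2 with 9 to 13 sites. The diamond is the Rag window at 1070 bp and the dots are 85 other windows, whose median is 1750 bp, with 3 of them below the diamond.

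Within the window the sites were spread along the genes and their near flanks and left the outer parts empty. The first 10 sites lay within 82.1 kb, and 6 of 12 bins of 20 kb held no site. Gaps between neighbouring Rag sites ran from 0.218 to 53.0 kb with a median of 10.1 kb, against 7.29 kb on chromosome 2. Joined at any distance of at least 12.2 kb and below 15.1 kb, the sites fell into groups of 3, 2 and 5 and 1 lone site. The planned joining distance lay in this range, near its lower end, where the group of 5 rests on a gap of 12.2 kb. At that distance chromosome 2 had 845 groups of at least 2 sites, of which 41.8% had fewer than 3 sites and 75.1% fewer than 5. The group of 5 spanned 36.1 kb, from the site inside Rag1 to the pair with the widest site, and the site at the 5′ end of Rag2 was not in it. Joined at up to 25 kb, the first 10 sites made 1 group, which held the sites of both genes, and 84.8% of 613 groups on chromosome 2 had fewer. Joined at up to 5 kb, the largest group was the 3 sites upstream of Rag2, and each gene's site stood alone.

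Cut at gaps of over 100 kb, a limit chosen after seeing the Rag sites, the 11 sites formed a stretch of their own. The gap before the first was 124.1 kb and the gap after the last 137.9 kb, and 6.04% of the gaps of chromosome 2 exceeded 100 kb. Cut at such gaps, chromosome 2 had 244 stretches with a median of 5 sites over 80.0 kb, and 71 of the stretches held 1 site. The Rag stretch had 11 sites over 135.8 kb, more sites than 65.6% of the stretches. The sites just outside the window were a pair of 301 and 327 bp that ended 66.5 kb before it (101312768 to 101313068 and 101313200 to 101313526) and one of 513 bp that began 91.3 kb after it (101711325 to 101711837). The sites just inside lay 57.6 and 46.5 kb from the edges, so that moving either edge by less than this would leave the same 11 sites.

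The surroundings of the Rag genes were lopsided. In the 5 windows beyond Rag2, a total of 1.2 Mb, there were 2 sites, the narrow pair. In the 5 windows beyond Rag1 there were 36, with 6, 11, 8, 1 and 10 in order of distance. Before the narrow pair came 2.81 Mb without a site (98507625 to 101312767), and 5 of the 4023 gaps of chromosome 2 were longer. In the GRCm38.p6 gene table, the protein-coding genes on the Rag2 side are Iftap and, beyond it, Lrrc4c, which encodes an adhesion protein of nerve cell synapses, then Api5, Ttc17 and Hsd17b12. Unknown sequence in the assembly was not taken out of the gap. Among 146 other windows with at least 11 sites and 5 full windows on either side, the poorer side had a median of 39.5 sites, and 9 (6.16%) had 2 or fewer. Their richer side had a median of 64, and 14.4% had under 36. In 5 of the 146 the poorer side had 2 or fewer and the richer side 36 or more. The Rag window has the lowest count allowed in this set, which was not matched for number of sites. The comparison of sides was chosen after seeing the Rag sites.

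**Figure D4:**
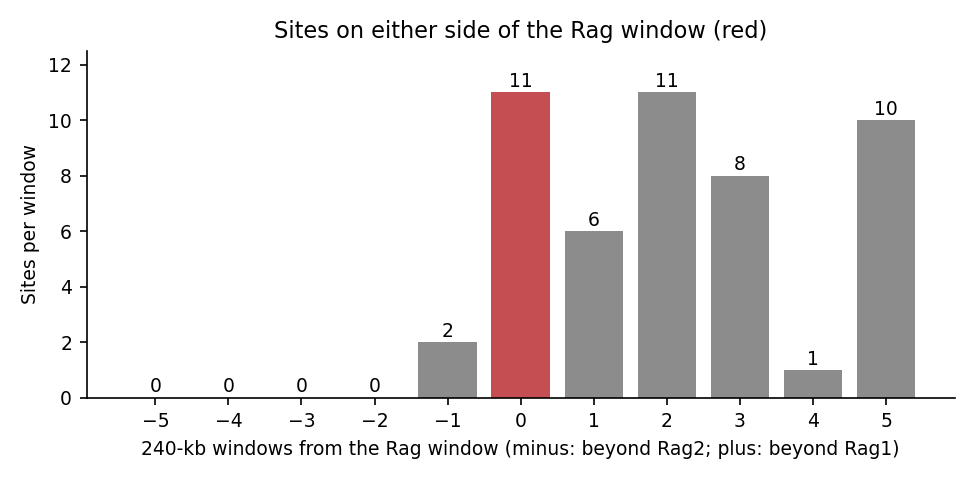
Sites per 240-kb window (bar height) for the Rag window (red, 11 sites) and the 5 windows on either side (grey), with minus for windows beyond Rag2 and plus for windows beyond Rag1. The 4 outer windows on the Rag2 side are empty, and those on the Rag1 side hold between 1 and 11 sites.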

How the data were processed

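BWA 0.6.2, SAMtools and the build mm9 are named in the submitters' processing notes. How sites were called, at which threshold, and whether the input was used is not given in the sources used here. As 1 list, the authors deposited 3 columns (chromosome, start, end) and no count, score or p-value, so depth is unknown. Positions are given counted from 1. The window and the extents of the genes were set by the rule that defines the locus, the extents only approximately. Sites overlapping a window by at least 1 base were counted. Windows of 240 kb were laid end to end between the first and last site of chromosome 2, with the Rag window as one of them. Intervals are exact Poisson or exact (Clopper-Pearson) binomial at 95%. The locus, the motifs and the comparisons were chosen with earlier results of these data known, and the comparisons with windows of like counts, the sides and the 100-kb stretches after seeing the Rag sites. Rag1 and Rag2 and the 5 protein-coding genes on either side were named by rule. Markers of cell types and other recombination genes need mm9 gene positions and were not analysed here, so the label of B cells was not checked. Counting was tested on simulated windows. The software was Python 3.11.15 with scipy 1.17.1, pandas 2.3.3, numpy 2.4.6 and, for figures, matplotlib 3.10.9.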

Additional observations from a re-analysis of the deposited data

How the results depend on the processing

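No result has a test, so these are descriptions of 1 library. Of 19 recomputed values, 10 stayed close to the main value (within 1.5 times of a count, or within the binomial interval of a share), 9 moved by more and 0 reversed. Counts of sites and sizes of groups have no direction and could not reverse. The binomial interval takes windows as independent draws, which neighbouring windows need not be. Restricting the list to sites wider than its median left 5 sites in the window, and 75.9% of the other windows then had fewer. The share with less was 74.1% by covered bases and 64.8% among windows with a site. It stayed between 78.4 and 80.2% with windows tiled from position 1 or shifted by 120 kb, with sites at most 1 kb apart joined (9 regions in the window) and with all autosomes. Within 5 kb both of the 2 gene starts had a site, and within 1 kb it was again 1. Joining at 5 kb gave a largest group of 3 sites and at 25 kb one of 10. The number of sites in the gene extents stayed at 2 when these were widened by 2 kb. Chosen after seeing the data, windows with exactly 11 sites had a narrower widest site in 0 of 15 and those with 7 to 15 sites in 11 of 147 (7.48%). As few sites on the poorer side were found in 9.4% of windows with 2 windows a side and 2.1% with 10. No paired analysis was possible because there is 1 list and no replicate. A missing site may lie below the caller's threshold, which is unknown.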
